A study of Rattus norvegicus with 10 samples.

Results

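The fibroblast growth factor (FGF) receptors Fgfr1, Fgfr2, Fgfr3 and Fgfr4, the co-receptor beta-Klotho (Klb) and the ligands Fgf1 and Fgf22 were followed in rat liver after sulfur mustard (SM), with and without MSTF. SM is a blistering agent that alkylates DNA and thiols. MSTF is a plant mixture that joins the salvianolic acids of Salvia miltiorrhiza with the flavonoids of Anemarrhena asphodeloides. The members were the array probes whose RefSeq accession belongs to 1 of these 7 genes. Of 41012 probes, 9 met this rule, and they covered 6 of the 7 genes. No probe matched Klb, which is therefore named only and was not analysed here. Fgfr3 and Fgf22 were chosen by their change after SM and its absence with MSTF, so their values in these comparisons are a description and carry no test. The other members were added as relatives of these genes.

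Livers of 10 male Sprague Dawley rats were each hybridized to a one-colour array. The control group (n = 3) was given propylene glycol, the solvent of SM, by subcutaneous injection. The SM group (n = 4) was given SM once at 3.5 mg/kg by the same route, and the SM + MSTF group (n = 3) was given the same SM dose and, 1 h later, MSTF by gavage at 120 mg/kg. All livers were taken 24 h after SM. No group was given MSTF without SM. Age was not given in the sources used here.

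FGFs are secreted ligands that bind receptor tyrosine kinases together with heparan sulfate, or, for the endocrine FGFs, together with a Klotho co-receptor. The adaptor FRS2 then links the receptor to the RAS-MAPK and PI3K pathways, and ETS factors, Sprouty proteins and DUSP6 are induced as targets and feedback inhibitors. In the liver, FGF receptor 4 with beta-Klotho is known as the receptor of hepatocytes for the ileal hormone FGF15 (FGF19), which represses bile acid synthesis, and FGF21 is a fasting and stress hormone made by the liver itself.

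The arrays were similar in most quality measures, but less so for dim signals. Between 51.9% and 61.4% of probes were well above background, no spot was saturated, and median signal was 2.20 to 2.54 times background. SM + MSTF replicate 3 was the least like the rest. Its highest correlation with another array was 0.982, where each other array reached 0.987 or more. The lowest log2 signal well above background was 3.85 to 4.17 on SM arrays, 4.16 to 4.82 on control arrays and 4.09 to 4.60 on SM + MSTF arrays. A dim probe could thus pass more readily on SM arrays than on some others. All 8 hepatocyte markers, albumin among them, were well above background on every array. Values are log2 of the quantile-normalized signal. They can be compared between arrays for 1 probe, but not between probes, and no level of 1 gene is set against that of another. The arrays lay on 3 slides. All 4 SM arrays filled slide 2, so the effect of that slide and that of SM cannot be told apart. The controls shared slide 1 with SM + MSTF replicate 3, and the remaining SM + MSTF arrays, replicates 1 and 2, were on slide 3. In whole liver, a change in the number of cells of a type and a change in RNA per cell cannot be told apart either.

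Of the 9 member probes, 8 passed the filter on dim probes, which asked for a signal well above background on all arrays of 1 group or more. For Fgfr1, Fgfr3, Fgfr4, Fgf1 and 3 of the 4 Fgfr2 probes, all 10 arrays were well above background. Fgf22 passed only through the SM group, and the 4th Fgfr2 probe did not pass. A probe was called changed at a Benjamini-Hochberg adjusted p under 0.05 with at least a 1.5-fold difference, in a limma fit over all 22977 probes that passed. In SM versus control, 2 of 8 member probes were called, Fgfr3 and Fgf22, both higher in SM, where 2.40% of all probes were called. In SM + MSTF versus SM, 1 of 8 was called, Fgfr3, lower in SM + MSTF, where 1.26% of all probes were called. Both genes were picked on these contrasts, so nothing is read from these counts. In SM + MSTF versus control, 0 of 8 member probes and 0.00% of all probes were called by limma, with 0 member probes and 2194 of all probes at an unadjusted p under 0.05. The methods' t-test after Benjamini-Hochberg gave 0 as well. The 0.00% depended on SM + MSTF replicate 3, without which 247 of 23035 probes and 0 of 8 member probes were called by limma. Probes past an unadjusted p of 0.05 with at least 1.5-fold made up 5.61%, 3.01% and 5.35% of all probes when SM was compared with control, SM + MSTF with control and SM + MSTF with SM.

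**Figure D1:**
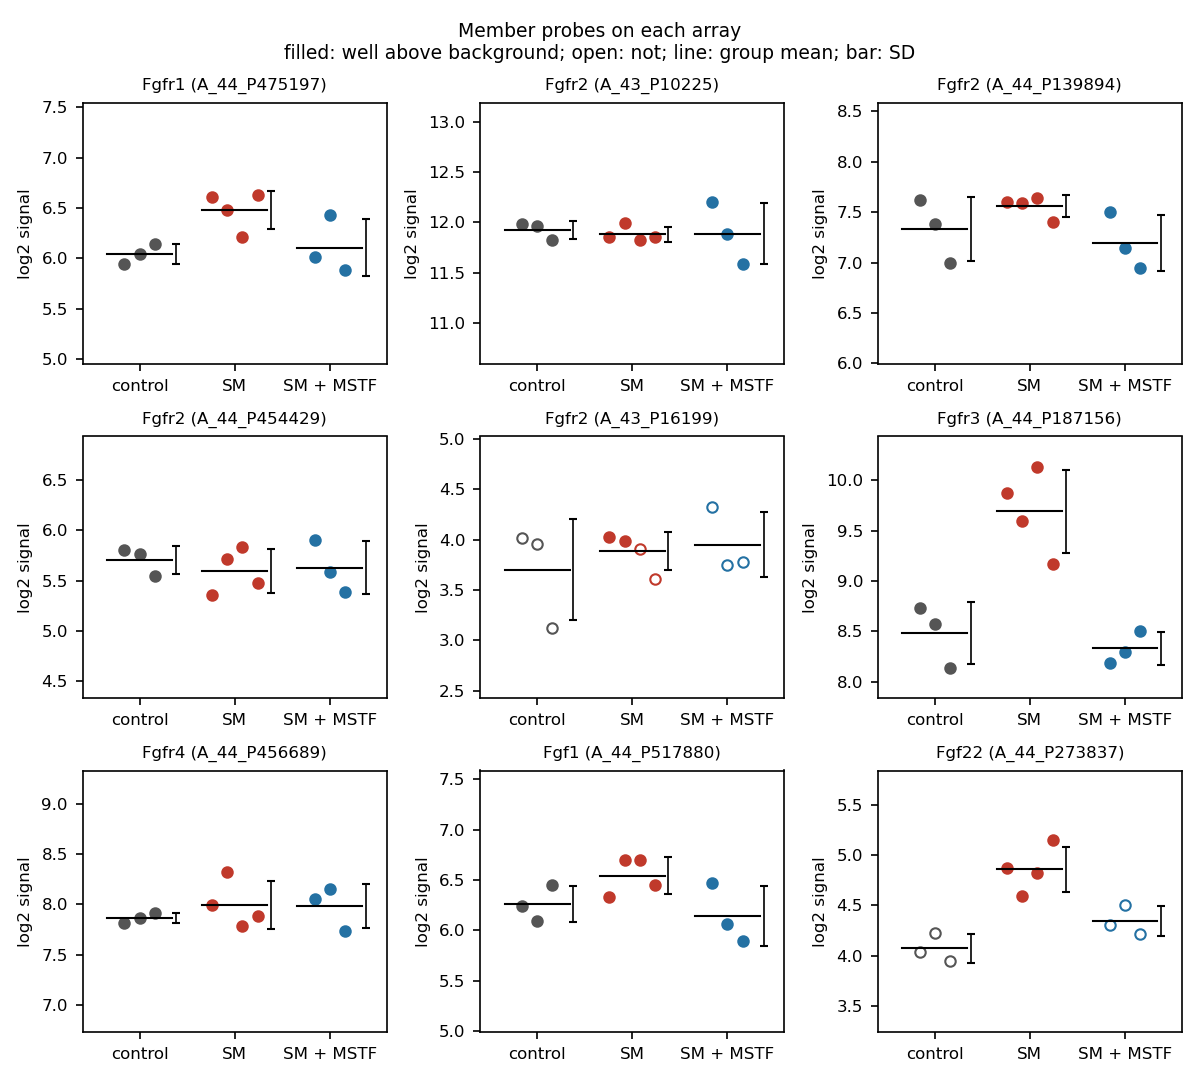
The log2 quantile-normalized signal (vertical axes, each 1 probe with its own range) is plotted for each array in the control, SM and SM + MSTF groups. Filled points were well above background and open points were not, lines are group means and bars are SD (n = 3, 4 and 3). The 4 SM arrays lay above all other arrays for Fgfr3, and for Fgf22 only the SM points were well above background, whereas the groups overlapped for Fgfr2, Fgfr4 and Fgf1.

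Fgfr3, a receptor best known as a brake on bone growth, had the largest difference among the members that were well above background on all arrays. The log2 signal of its single probe (A_44_P187156) was 8.73, 8.58 and 8.14 in the control rats. In the SM rats it was 9.87, 9.60, 10.13 and 9.17, and in the SM + MSTF rats it was 8.19, 8.30 and 8.50. Every SM array lay above every array of the other groups, by at least 0.44 log2 against control and by at least 0.66 log2 against SM + MSTF, while the control and SM + MSTF arrays overlapped. The mean was 9.69 ± 0.41 (SD, n = 4) after SM, beside 8.48 ± 0.31 (SD, n = 3) for control and 8.33 ± 0.16 (SD, n = 3) for SM + MSTF. The SM mean was 1.21 log2 (SE 0.23) above control, which is 2.32-fold. The SM + MSTF mean was lower than the SM mean by a log2 difference of -1.36 (SE 0.23), so that SM was 2.57-fold over SM + MSTF. Between SM + MSTF and control the log2 difference was -0.15 (SE 0.24), smaller than its standard error.

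The scanner intensities of Fgfr3, before any normalization between arrays, showed the same order of the groups. They were 343 to 372 in control, 605 to 951 in SM and 265 to 385 in SM + MSTF. On slide 1, where control and SM + MSTF shared a slide, SM + MSTF replicate 3 at 8.50 lay within the control range. The difference between SM and control kept its sign in 15 of 15 alternative settings, from 1.04 to 1.39 log2. The call did not hold as well. The Fgfr3 call in SM versus control was lost without control replicate 1, 2 or 3 or without SM replicate 1, 2 or 3, where the difference was 1.34, 1.26, 1.04, 1.15, 1.24 and 1.06 log2. The call in SM + MSTF versus SM was lost without SM replicate 1 or 3 or without SM + MSTF replicate 1 or 2, where the difference was -1.30, -1.21, -1.29 and -1.35 log2. Both calls were also lost with slide as a random block, where the differences were 1.23 and -1.36 log2, and with the methods' t-test after Benjamini-Hochberg. The first was lost when all probes were tested, and the second with normexp or with only the 2 groups in the fit.

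Fgf22, a paracrine ligand known for its part in forming synapses, was at the edge of detection. Its probe (A_44_P273837) was well above background on 4 of 4 SM arrays, on 0 of 3 control arrays and on 0 of 3 SM + MSTF arrays. The log2 signal was 4.87, 4.59, 4.82 and 5.15 in SM. It was 4.04, 4.23 and 3.95 in control and 4.31, 4.50 and 4.22 in SM + MSTF, where these signals were not well above background. SM replicate 2, at 4.59, lay below the lowest signal that was well above background on control replicate 2, which was 4.82. The dim groups were also set at the lowest signal that was well above background on each array, or at the signal of Fgf22 itself if larger. The SM mean of Fgf22 was then 1.38-fold over control and 1.35-fold over SM + MSTF. These folds hold for this normalization only and make no allowance for the spread between rats. The fitted log2 differences, which take the dim signals at face value, were 0.78 (SE 0.14) between SM and control, -0.51 (SE 0.14) between SM + MSTF and SM and 0.27 (SE 0.15) between SM + MSTF and control. With normexp background correction and an offset of 50, which compresses dim probes, the SM versus control difference was 0.20 log2 and was not called. The SM + MSTF versus SM difference was -0.13 log2 there. The Fgf22 call was also lost without control replicate 1, 2 or 3 or without SM replicate 1 or 3, where the difference was 0.77, 0.86, 0.72, 0.78 and 0.80 log2, with slide as a random block (0.77 log2) and with the methods' t-test after Benjamini-Hochberg.

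The sequences just before the start sites of Fgfr3 and Fgf22 are shown because these were the members that differed together. RefSeq promoters of the assembly GRCr8 were matched for 6 of the 7 members, all but Fgfr1. Each is placed at an annotated start, which need not be the outer edge of the gene. The Fgf1 promoter stretch lay inside the annotated span of its gene, and those of Fgfr3 and Fgfr4 overlapped the edge of theirs. The stretches below cover the 250 bases before each annotated start on the minus strand, at chr14:81227210-81227459 for Fgfr3 and chr7:10600946-10601195 for Fgf22. Capitals mark GC boxes (GGGCGG) and CCAAT boxes (CCAAT) on either strand, and no base of these stretches lies in more than 1 of the motifs searched.
Fgfr3: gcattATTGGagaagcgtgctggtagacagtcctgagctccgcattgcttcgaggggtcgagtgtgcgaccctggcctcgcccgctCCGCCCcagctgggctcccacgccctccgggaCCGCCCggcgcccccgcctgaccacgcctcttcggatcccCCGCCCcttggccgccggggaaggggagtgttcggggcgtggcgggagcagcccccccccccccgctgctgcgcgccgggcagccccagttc
Fgf22: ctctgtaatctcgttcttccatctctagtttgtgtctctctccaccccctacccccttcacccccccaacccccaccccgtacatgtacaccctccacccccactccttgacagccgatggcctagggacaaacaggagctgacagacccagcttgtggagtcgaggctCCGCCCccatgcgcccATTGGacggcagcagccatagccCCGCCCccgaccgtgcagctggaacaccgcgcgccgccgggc
Fgfr3 held 3 GC boxes and 1 CCAAT box, and Fgf22 held 2 GC boxes and 1 CCAAT box. These motifs were common, with 30.5% of 33469 promoters of the same length holding a GC box and 34.0% a CCAAT box. Fgfr2, whose groups overlapped, held 2 GC boxes and 1 CCAAT box as well, and Fgfr4 held 2 GC boxes. Another 5 motifs were searched on both strands and were in none of the 6 member stretches, namely TATAAA (12.9% of promoters), the AP-1 site TGACTCA (4.0%), the ETS site CCGGAAG (7.3%), the E-box CACGTG (5.6%) and the heat shock core GAANNTTC (7.2%). The GC content was 74.4% for Fgfr3 and 64.8% for Fgf22, and 96.1% and 84.2% of promoters had a lower one. A match or its absence describes these letters only.

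The nearest genes with a tested probe on either side of both loci were examined after the members' values were known. Beside Fgfr3, the log2 difference in SM versus control was -0.16 for Nsd2 and -0.08 for Tmem129 (limma adjusted p of 0.643 and 0.835). Beside Fgf22 it was -0.0027 for Rnf126 and 0.16 for Polrmt (limma adjusted p of 0.995 and 0.455). None of these 4 neighbours was called in any of the 3 comparisons.

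Fgfr1, which with beta-Klotho is known to mediate the action of FGF21 on fat tissue, differed by less. Its probe (A_44_P475197) had a log2 signal of 5.95, 6.04 and 6.14 in control, of 6.61, 6.48, 6.21 and 6.63 in SM, and of 6.01, 6.43 and 5.88 in SM + MSTF. The SM arrays lay above the control arrays by a gap of 0.07 log2 and overlapped the SM + MSTF arrays. The difference between SM and control was 0.44 log2 (SE 0.15), with an adjusted p of 0.179 in the limma fit. For SM + MSTF versus SM it was -0.37 log2 (SE 0.15, limma adjusted p of 0.275), and for SM + MSTF versus control it was 0.06 log2 (SE 0.16, limma adjusted p of 0.921). Fgfr1 did not pass the test in any comparison. With normexp the SM versus control difference was 0.20 log2. Arrays that did not overlap between groups were found for 3 of 8 member probes in SM versus control (Fgfr1, Fgfr3 and, with its dim signals taken as measured, Fgf22), where 18.0% of all probes showed this. The counts were 0 of 8 in SM + MSTF versus control against 15.4% of all probes, and 2 of 8 in SM + MSTF versus SM (Fgfr3 and Fgf22) against 14.7%. Apart from the genes picked on these contrasts, the members' share was 1 of 6 in SM versus control and 0 of 6 in the others.

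Fgfr2, a receptor whose splice forms divide between epithelium and mesenchyme, was read by 4 probes. For the probe A_43_P10225 the log2 signal was 11.99, 11.96 and 11.82 in control, 11.86, 11.99, 11.83 and 11.85 in SM, and 12.20, 11.89 and 11.58 in SM + MSTF. Its group means lay within 0.04 log2 of each other, less than the SD of any group. The SM versus control difference was -0.04 log2 (SE 0.14) for this probe, 0.22 log2 (SE 0.17) for A_44_P139894 and -0.11 log2 (SE 0.16) for A_44_P454429. In SM + MSTF versus SM the differences were 0.01, -0.36 and 0.03 log2, and in SM + MSTF versus control they were -0.03, -0.14 and -0.08 log2. The signs differed among the tested probes in both comparisons with SM and were all negative in SM + MSTF versus control. All their groups overlapped, and the limma adjusted p ranged from 0.333 to 0.988. The remaining probe, A_43_P16199, carries another Fgfr2 accession and was well above background on 2 SM arrays only, so it was not tested. Its log2 signal was 3.12 to 4.02 in control, 3.61 to 4.03 in SM and 3.75 to 4.32 in SM + MSTF.

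Fgfr4, the main FGF receptor of hepatocytes, showed no difference larger than its standard error. Its probe (A_44_P456689) had a log2 signal of 7.81, 7.86 and 7.92 in control, of 7.99, 8.32, 7.78 and 7.88 in SM, and of 8.06, 8.15 and 7.74 in SM + MSTF. The groups overlapped in all comparisons. The differences were 0.13 log2 (SE 0.15) for SM versus control, 0.12 log2 (SE 0.16) for SM + MSTF versus control and -0.01 log2 (SE 0.15) for SM + MSTF versus SM, with limma adjusted p of 0.718, 0.834 and 0.979.

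Fgf1, a ligand that binds all FGF receptors, did not pass the test either. The log2 signal of its probe (A_44_P517880) was 6.24, 6.10 and 6.45 in control, 6.33, 6.70, 6.70 and 6.45 in SM, and 6.47, 6.06 and 5.89 in SM + MSTF. The groups overlapped in all comparisons. The difference was 0.28 log2 (SE 0.16, limma adjusted p of 0.438) for SM versus control, -0.40 log2 (SE 0.16, limma adjusted p of 0.274) for SM + MSTF versus SM and -0.12 log2 (SE 0.17, limma adjusted p of 0.849) for SM + MSTF versus control.

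**Figure D2:**
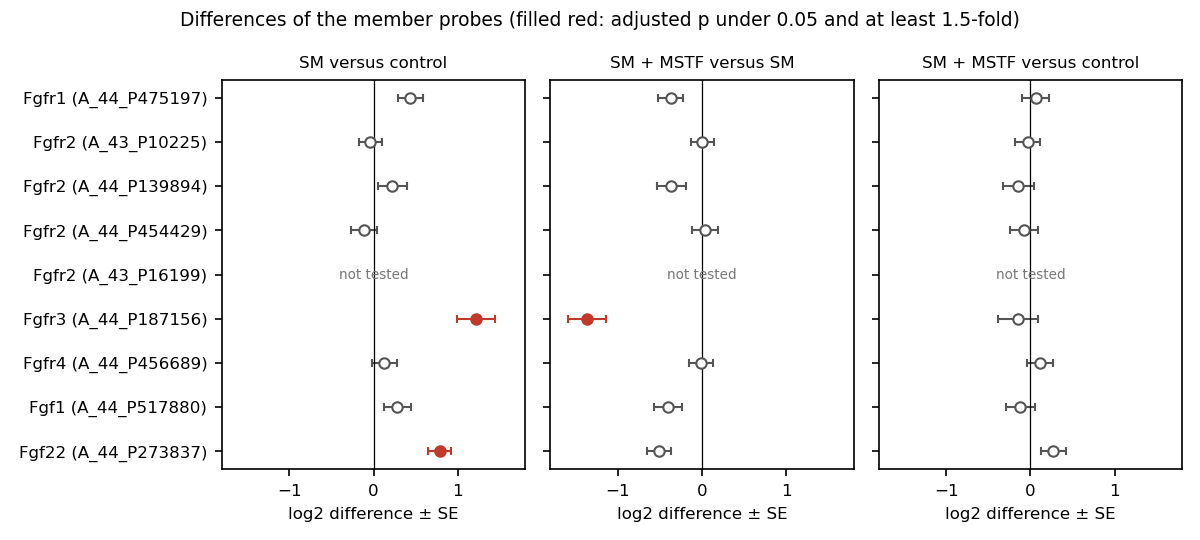
The fitted log2 difference (horizontal axes) with its standard error is plotted for each member probe in the 3 comparisons. Filled red points, which are Fgfr3 in both comparisons with SM and Fgf22 in SM versus control, passed the call, and open points did not.

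Over the 8 tested probes the median log2 difference between SM and control was 0.25, where it was 0.03 over all probes. For SM + MSTF it was -0.37 against SM (-0.02 over all probes) and -0.06 against control (0.0046 over all probes). These medians include Fgfr3 and Fgf22, which were picked on the comparisons with SM, and take in 3 probes of Fgfr2. No shift of the members as a group is therefore read from them. The probes higher in SM than in control were 6 of 8, with both of the genes picked for this among them. Both comparisons with SM share the SM arrays, so that their values are not independent of each other.

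Within the groups, the members' correlations with Fgfr3 ran both ways. After the group means were taken out, Pearson's r across the 10 arrays was -0.57 between Fgfr3 and Fgfr1, -0.35 with Fgfr4, -0.21 with Fgf1 and -0.27 with Fgf22. For Fgfr2 it was -0.16, 0.43, 0.24 and 0.51 over its 4 probes, the last for A_43_P16199. That probe was well above background on 2 arrays only and Fgf22 on 4, so their values rest largely on dim signals. The 3 Fgfr2 probes that were well above background on all arrays followed each other more closely, with r of 0.73 to 0.77. Their r with the dim A_43_P16199 was 0.60 to 0.92. These correlations rest on 10 arrays and 3 group means, and are a description.

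The rest of the FGF system was examined with lists of 106 pathway genes, of which 91 had a probe and 63 were tested. By limma, 0 of 63 were called in each comparison. At an unadjusted p under 0.05 with at least 1.5-fold, 2 were higher and 1 lower after SM than in control, 2 were higher and 1 lower in SM + MSTF than in SM, and 0 differed between SM + MSTF and control. By the methods' t-test without adjustment, 1 was called between SM and control (Gab1), 1 between SM + MSTF and SM (Cyp8b1) and 0 between SM + MSTF and control, where 1130, 861 and 285 of all 22977 probes were called by the same test. The median log2 difference over the 63 genes was 0.07 between SM and control, -0.01 between SM + MSTF and SM and 0.10 between SM + MSTF and control. In the same order, groups did not overlap for 8 (12.7%), 5 (7.94%) and 12 (19.0%) of these genes, beside 18.0%, 14.7% and 15.4% of all probes.

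Among the ligands, probes were found for 12 of 13 other FGFs (Fgf2 to Fgf20), and 0 were well above background on every array of a group. The same held for the 4 intracellular FGF homologues. Of the endocrine ligands, Fgf19 (the rat Fgf15) was well above background on 1 of 10 arrays, SM + MSTF replicate 3, and Fgf23 on 0. Fgf21 was well above background on all 10 arrays and varied widely. Its log2 signal was 9.90, 9.19 and 9.31 in control and 8.63, 8.62, 8.90 and 9.34 in SM. In SM + MSTF it was 8.89, 12.33 and 8.81, so that replicate 2 alone lifted the group mean. The Fgf21 difference was -0.60 log2 (SE 0.73) in SM versus control and 1.14 log2 (SE 0.73) in SM + MSTF versus SM, with limma adjusted p of 0.740 and 0.454.

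Of the co-receptors and binding proteins, Kl (alpha-Klotho) was well above background on 0 of 10 arrays. Fgfrl1, a receptor without a kinase domain, had means of 11.54, 11.68 and 11.69 in control, SM and SM + MSTF, and its SM versus control difference was 0.14 log2 (SE 0.11, limma adjusted p of 0.574). Of the genes of heparan sulfate synthesis and its core proteins, 17 were tested and their SM versus control differences ranged from -0.42 to 0.27 log2.

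Below the receptors, 26 adaptors and kinases were tested. Frs2 was 5.96, 5.84 and 6.01 in control and 6.05, 6.07, 6.25 and 6.08 in SM, a difference of 0.18 log2 (SE 0.11, limma adjusted p of 0.452). Gab1, a docking protein for PI3K and SHP2, was 4.66, 4.40 and 4.78 in control, 5.51, 5.03, 5.30 and 5.11 in SM, and 4.93, 4.94 and 4.65 in SM + MSTF. Its SM arrays lay above both other groups, with a dim control signal taken as measured. Gab1 was well above background on 2 of 3 control arrays. Control replicate 2, at 4.40, lay below the lowest signal well above background on that array, which was 4.82. The SM versus control difference of Gab1 was 0.63 log2 (SE 0.15), with a limma adjusted p of 0.0574 that missed the threshold. Without SM + MSTF replicate 3 Gab1 was called. Rps6ka3, a kinase activated by ERK, was 1.28 log2 (SE 0.45) higher in SM + MSTF than in SM (limma adjusted p of 0.224), and SM + MSTF replicate 1 stood at 8.11 where the other 2 replicates were at 5.85 and 6.12.

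The feedback inhibitors and targets gave no call, where at most 2.40% of all probes were called in any comparison. Spry2 was at means of 4.85, 4.73 and 4.74 in control, SM and SM + MSTF. Its SM versus control difference was -0.12 log2 (SE 0.14, limma adjusted p of 0.737). These values include dim signals, as Spry2 was well above background on 2 of 3 control arrays and 2 of 3 SM + MSTF arrays. Spry3 was well above background on 4 of 4 SM arrays, 2 of 3 control arrays and 0 of 3 SM + MSTF arrays. With dim signals taken at face value, its fitted SM + MSTF versus SM difference was -0.91 log2 (SE 0.39, limma adjusted p of 0.295). With the dim group set as for Fgf22, which was not tested, its SM mean was 1.18-fold over SM + MSTF. That fold rests on SM replicate 3, at 5.87 where the other SM arrays were at 4.26, 4.18 and 4.17. Etv5, an ETS factor, differed by 0.12 log2 (SE 0.20, limma adjusted p of 0.822) in SM versus control. Dusp6 had no matched probe. Etv4, another ETS factor induced by FGF signals, is named after its values were seen. It was not tested, because it was well above background on 3 of 4 SM arrays and on 0 arrays of the other groups. Its log2 signal was 4.46, 3.74, 4.24 and 4.21 in SM, 1.96, 2.01 and 2.04 in control and 2.06, 2.51 and 2.54 in SM + MSTF. The dim signals are not measured levels. On those arrays the lowest signal well above background was 4.16 to 4.82 in control and 4.09 to 4.60 in SM + MSTF. These limits lie near the SM level, so neither a gap nor a fold is given.

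Of the bile acid genes that endocrine FGFs control, 10 of 10 were tested and 0 were called, beside at most 2.40% of all probes. Cyp7a1, the rate-limiting enzyme of bile acid synthesis, was 11.43, 10.26 and 9.66 in control, 8.80, 11.10, 11.03 and 10.14 in SM, and 11.04, 8.64 and 8.56 in SM + MSTF. The groups overlapped widely, and the SM versus control difference was -0.18 log2 (SE 0.74, limma adjusted p of 0.933). Cyp8b1, the 12-alpha-hydroxylase, was -0.63 log2 (SE 0.24) in SM versus control and 0.81 log2 (SE 0.24) in SM + MSTF versus SM, with limma adjusted p of 0.235 and 0.167. Nr0b2 (SHP), the repressor that acts on both enzymes, was 1.59 log2 (SE 0.66) higher in SM than in control, with a limma adjusted p of 0.266 and overlapping groups.

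**Figure D3:**
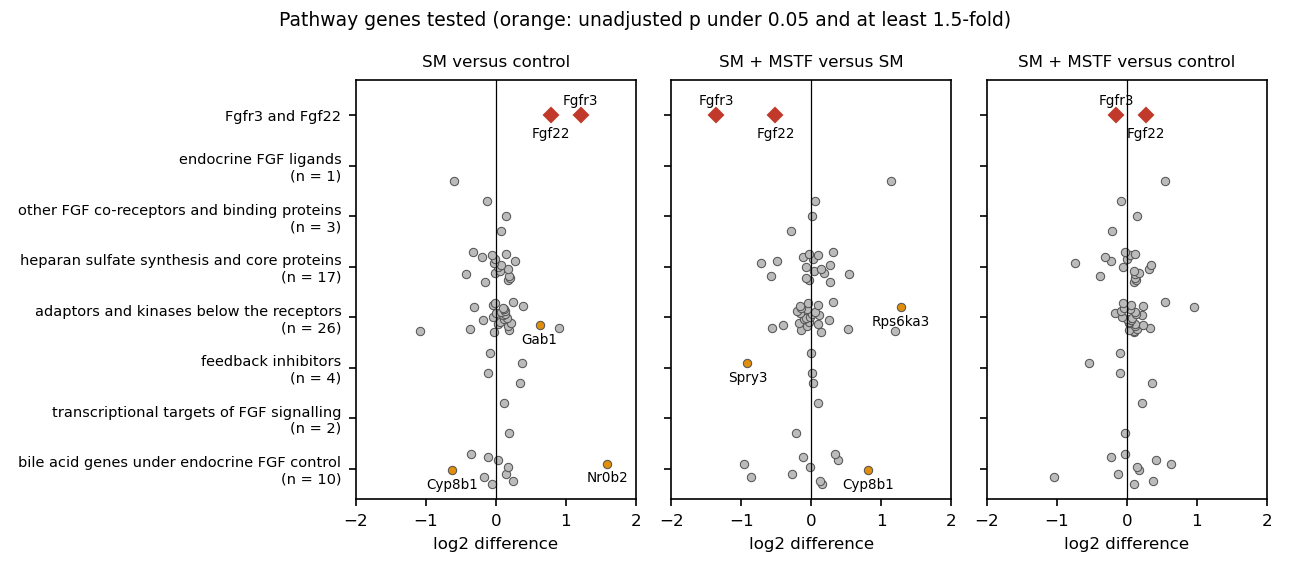
Each grey or orange point is the log2 difference (horizontal axis) of 1 tested pathway gene, in rows by list with the number tested, for the 3 comparisons. Orange points passed an unadjusted p of 0.05 with at least 1.5-fold, and red diamonds show Fgfr3 and Fgf22 for scale. None of the 63 pathway genes passed the adjusted threshold. At most 2.40% of all probes were called in any comparison.

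The genes whose probes were most like Fgfr3 were sought among 10798 named probes that were well above background on all 10 arrays. The highest Pearson correlations with the Fgfr3 probe over the 10 arrays were those of Alkbh4 (0.975), Myh11 (0.975), Psmd10 (0.973), Slc35a2 (0.972) and Pik3cb (0.967). Myh11 encodes smooth muscle myosin, Psmd10 is gankyrin, and Pik3cb is a catalytic subunit of PI3K. Myh11 also had a difference of similar size, with a log2 signal of 8.13, 7.90 and 7.76 in control, 9.35, 9.19, 9.60 and 9.09 in SM, and 7.68, 7.93 and 7.94 in SM + MSTF. The most opposite were Hspa8 (-0.949), Cwc25 (-0.933), Plce1 (-0.926), Vhl (-0.906) and C18h18orf21 (-0.901). Hspa8, the constitutive heat shock chaperone HSC70, was 7.69, 7.82 and 7.95 in control and 6.39, 6.64, 6.49 and 7.24 in SM. With the group means taken out, r was 0.910 for Myh11, 0.908 for Pik3cb and -0.685 for Hspa8. The 10 arrays share 3 group means, and these correlations carry no p.

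**Figure D4:**
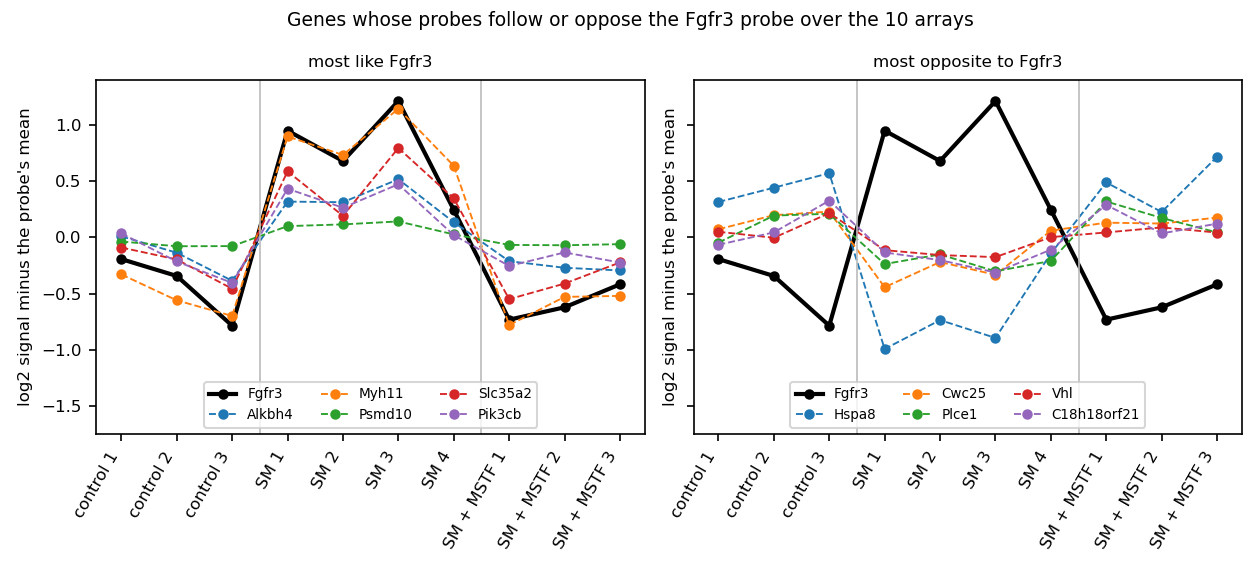
The log2 signal minus the probe's mean over all arrays (vertical axis) is plotted for Fgfr3 in black and for the 5 most similar (left) and 5 most opposite genes (right) on each of the 10 arrays, with grey lines between the groups. On average the genes on the left were higher and those on the right lower in SM than in the other groups. SM 3 was the highest array for Fgfr3 and for all 5 similar genes.

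Markers of other liver cells were read beside these results. The summed log2 signal of stellate cell and fibroblast markers, of which 8 of 10 were well above background on all arrays and 1 on none, was 14.74 to 14.90 in control, 14.37 to 14.53 in SM and 14.12 to 14.84 in SM + MSTF. The sum was thus lower in all SM arrays than in control, but it is carried by bright collagen probes and the markers did not move as one. In SM versus control the log2 difference was -0.99 for Col1a1, -0.73 for Col1a2 and -0.23 for Col3a1, and 0.33 for Dcn, 0.20 for Des and 0.09 for Pdgfrb. The median over the 8 tested markers was -0.14 log2, and 0 of 8 were called, where 2.40% of all probes were. Hepatocyte markers summed to 20.49 to 20.58, 20.44 to 20.50 and 20.33 to 20.52, and endothelial markers, 4 of 8 on all arrays, to 14.35 to 14.36, 14.30 to 14.43 and 14.03 to 14.43. Cholangiocyte markers, 4 of 8 on all arrays and 1 on none, ranged from 9.73 to 9.99, 9.70 to 10.23 and 9.56 to 10.63. Leukocyte markers, 5 of 8 on all arrays and 1 on none, ranged from 13.26 to 13.54, 13.03 to 14.03 and 13.55 to 13.93. The 5 tested leukocyte markers differed by 0.25 to 1.37 log2 (median 0.46) in SM + MSTF versus SM. In SM versus control they differed by -1.05 to 0.17 log2 (median -0.17). In either comparison 0 were called, where at most 2.40% of all probes were. How far these shifts bear on Fgfr3 and Fgf22 was not tested.

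**Figure D5:**
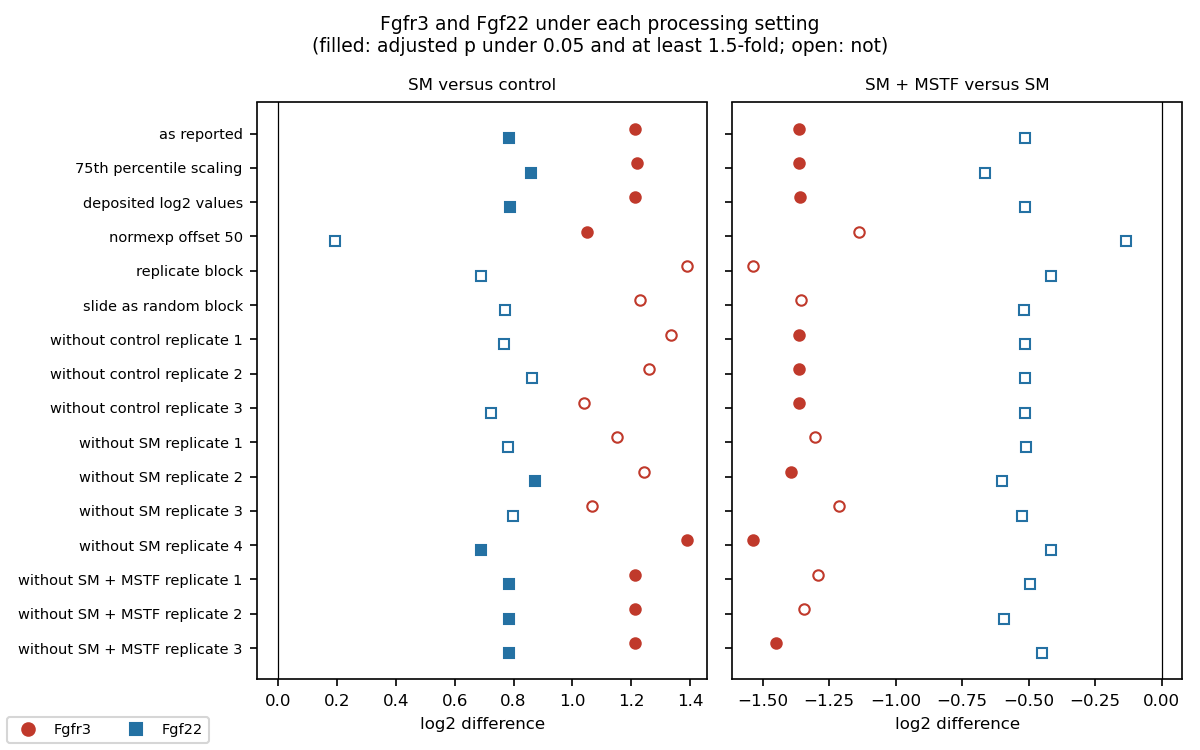
The log2 differences (horizontal axes) of Fgfr3 (circles) and Fgf22 (squares) are plotted under each processing setting (rows), on the left for SM versus control, on the right for SM + MSTF versus SM. Filled symbols passed an adjusted p under 0.05 with at least 1.5-fold and open symbols did not. All points of a gene lie on the same side of 0, while the call comes and goes between settings.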

How the data were processed

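Per the labels, total RNA was labelled with Cy3 and hybridized to 4 x 44 K Whole Rat Genome arrays. The authors read the scans with Agilent Feature Extraction 10.7, which deposited a background-subtracted intensity per spot, and deposited log2 values after quantile normalization in GeneSpring. Here the deposited intensity was used, and the log2 table served as an alternative. Control and non-uniform spots (0 to 4 per array) were left out, and intensities were quantile normalized over 10 arrays, turned into log2 and averaged per probe (R 4.3.3, limma 3.58.1). The filter also asked for at least 2 values per group. All 10 arrays entered 1 limma fit (lmFit, eBayes) with 3 contrasts. The number of arrays limits the precision.

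Genes were named through RefSeq accessions (GRCr8), which matched 17512 probes, and for each list gene the probe of highest mean signal was used. The members and lists were chosen with earlier results of these data known. Named genes were all members, listed pathway genes that passed the call or an unadjusted p of 0.05 with 1.5-fold, 8 fixed genes of the pathway, and the 5 most and 5 least correlated with Fgfr3. Samples were grouped by their treatment label. The fit was tested on simulated data. Alternatives were 75th percentile scaling, the deposited log2 values, normexp with an offset of 50, no filter or a filter on all 10 arrays, fits of 2 groups, no fold minimum, the replicate number or slide as a block, the methods' t-test, and leaving out each array.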

Additional observations from a re-analysis of the deposited data

Results flagged for a closer look

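In groups of 4 arrays, the highest or lowest array was set against its nearest neighbour for the members and the named pathway genes. Of 21 groups examined, 2 had a lone array past Dixon's critical value for 4 samples, and chance gives about 1 in 20. SM replicate 3 was the highest in both. Frs2, the adaptor below the receptors, was 6.25 there and 6.08 on the nearest SM array. Spry3, a Sprouty inhibitor, was 5.87 there and 4.26 on the nearest SM array. No member probe stood out in this way.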

How the results depend on the processing

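The differences of Fgfr3 and Fgf22 between SM and either other group kept their sign in all 15 alternatives that refitted them, while their calls depended on the processing. In SM versus control (2 member probes called), 1 was called with normexp (Fgfr3), without the filter (Fgf22) and with the filter on all 10 arrays (Fgfr3), where 217 of 22977, 342 of 41012 and 337 of 20214 probes were, beside 551 of 22977 as reported. 0 were called with slide as random block and with the methods' t-test after Benjamini-Hochberg, where 85 and 320 of all probes were. Leaving out 1 array gave 0 to 2. In SM + MSTF versus SM (1 called), 0 were called with normexp, with only the 2 groups in the fit, with slide as random block and with that t-test, where 57, 154, 102 and 13 of all probes were, beside 289 as reported. With 1 array left out, 0 to 1 were called. With the replicate number as a block, 0 were called in both comparisons, where 54 and 64 of all probes were. The numbers did not pair the arrays, as r between same-numbered arrays was -0.10 to 0.17, and this block leaves SM replicate 4 without a partner. Leaving aside the slide as a fixed block, SM + MSTF versus control gave 0 called member probes in every setting run. All probes called there were 285 by the unadjusted t-test and 247, 3 and 1 without SM + MSTF replicate 3, SM + MSTF replicate 2 and control replicate 2. They were 0 in the others. Slide 3 held only SM + MSTF replicates 1 and 2. With the slide as a fixed block, SM + MSTF versus control therefore rests on SM + MSTF replicate 3 alone against the controls. The sign of that comparison then changed for Fgfr1 (-0.16 log2), Fgfr3 (0.02 log2) and Fgfr4 (-0.13 log2).

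Of the pathway genes (0 called), 1 was called in SM versus control by the methods' unadjusted t-test (Gab1), without the filter (Etv4), and without SM replicate 2 (Etv4) or SM + MSTF replicate 3 (Gab1), so that leaving out 1 array gave 0 to 1. In SM + MSTF versus SM, 1 was called by the unadjusted t-test (Cyp8b1), without the filter (Etv4) and without SM replicate 2 (Etv4), which also gave 0 to 1. Etv4, well above background in SM alone, entered these fits on its dim values or through the SM group, so nothing is read from its calls. The cause was not tested. Over all probes, 551 calls in SM versus control became 65 to 715 with 1 array left out, and 289 in SM + MSTF versus SM became 98 to 300. Signal near background limits Fgf22, Etv4, Gab1, Spry2, Spry3 and the Fgfr2 probe A_43_P16199.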
